A study of Mus musculus with 12 samples.

Results

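The genes of programmed cell death and of the p53 stress response were followed in mouse jejunal enteroids that had lost Hdac1 or Hdac2. The set holds 43 genes, chosen by symbol, of the 18929 genes listed in the count tables. It covers the BCL2 family, caspases and the apoptosome, inhibitors of apoptosis, the death receptor pathway, and p53 with its inhibitor Mdm2 and a choice of its targets. Of the 43 genes, 42 were listed in the tables of both mutants and 1, Hrk, was in neither. All 42 passed the filter on low counts. The RNA-Seq data came from 12 libraries, 4 per group. Control enteroids were described as villin-Cre, Hdac1-deficient enteroids were labelled HDAC1-/- and Hdac2-deficient enteroids HDAC2-/-, on a mixed C57BL/6J, 129SV and CD1 background. The mutants were made by crossing mice with floxed Hdac1 or Hdac2 alleles to villin-Cre mice, in which the villin promoter drives Cre in the intestinal epithelium. The paper's results name villin-Cre controls, while its methods call the control mouse wild-type. Whether all 3 groups shared the Cre transgene is therefore not settled. All enteroids had been grown for 5 days in ENR medium, which supplies EGF, Noggin and R-spondin 1. The methods describe crypts from 1 mouse per genotype, so nothing says that libraries of one genotype came from separate mice, the genotype cannot be told apart from the mouse and the culture grown from it, and p-values measure only the spread between these libraries.

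In the intrinsic pathway of apoptosis, BH3-only proteins sense stress and release BAX and BAK1 from anti-apoptotic BCL2 proteins. BAX and BAK1 then open the outer mitochondrial membrane, and cytochrome c assembles with APAF1 into the apoptosome that activates caspase 9. In the extrinsic pathway, ligands such as TNFSF10 (TRAIL) engage death receptors that recruit FADD and caspase 8. p53 is a transcription factor held low by the ubiquitin ligase MDM2. After DNA damage it induces several BH3-only genes, Bax, death receptors and its own inhibitor. In the intestine, crypt cells are known for p53-dependent death after irradiation, and mature enterocytes are shed at the villus tip. HDAC1 and HDAC2 are class I histone deacetylases.

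Depth lay between 20693200 and 30658628 counts per library, and 3 counts, taken as the floor of detection, equalled 0.0972 to 0.145 CPM (counts relative to the library total, scaled by TMM). This floor covers counting error only. Hdac1 lay at 3.38 to 5.09 CPM in Hdac1-deficient against 87.6 to 94.4 in control libraries. Hdac2 lay at 73.2 to 78.8 CPM in Hdac2-deficient against 131.6 to 141.2 in control libraries. The other deacetylase also lay below control in each mutant, with Hdac1 at 68.8 to 78.6 CPM in Hdac2-deficient and Hdac2 at 106.5 to 114.4 CPM in Hdac1-deficient libraries. The paper reported each deletion in RNA and protein, by RT-PCR, Western blot and immunofluorescence. It found no significant rise in protein of the remaining deacetylase. Counts per gene do not show which exons the remaining Hdac2 reads came from. Control replicate 1 stood furthest from its group. Its counts differed from those of the other controls by a chi-square of 3.65 to 8.18 per degree of freedom, against 1.52 to 3.05 among the others. Hdac1-deficient replicate 4 differed from the other Hdac1-deficient libraries by 3.85 to 6.71, against 2.95 to 5.02 among those. The epithelial markers Epcam, Vil1, Cdh1, Krt8, Krt18 and Cdx2 summed to 4895 to 5078, 5076 to 5193 and 6083 to 6282 CPM in control, Hdac1-deficient and Hdac2-deficient libraries. Of 11 markers of immune, endothelial, mesenchymal and muscle cells, 5 were listed in both tables and summed to 0.694 to 0.938 CPM in control, 1.23 to 1.53 in Hdac1-deficient and 0.664 to 0.868 in Hdac2-deficient libraries. Cd3e, Cd79a, Cdh5, Col3a1, Acta2 and Des were not in both tables. Markers of epithelial maturation moved with the genotype. All 5 crypt stem cell markers were lower in both mutants and all 6 enterocyte markers were higher. Summed stem cell markers lay at 4424 to 4556 CPM in control, 2620 to 3042 in Hdac1-deficient and 2342 to 2558 in Hdac2-deficient libraries. Summed enterocyte markers lay at 12047 to 13039, 20508 to 24208 and 16819 to 19327 CPM in the same order. Secretory and tuft cell markers summed to 1293 to 1464, 1892 to 2005 and 2100 to 2222 CPM, but the 6 genes did not move together. In Hdac1-deficient enteroids 3 of them rose, 2 fell and 1 was not called. In Hdac2-deficient enteroids 4 rose, 1 fell and 1 was not called. In each mutant 83.3% were called, beside 64.6% and 62.3% of all tested genes. The part of these shifts in the values below was not tested, and in whole enteroids fewer cells of a type and less RNA per cell cannot be told apart.

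Most apoptosis and p53 genes moved by small amounts in both mutants. In Hdac1-deficient enteroids 17 of the 42 members rose, 11 fell and 14 were not called, by edgeR's quasi-likelihood test at an adjusted p of at most 0.05 with any fold. These were 66.7% of the members, where 64.6% of the 14246 tested genes were called, 32.7% higher and 31.9% lower. In Hdac2-deficient enteroids 22 rose, 8 fell and 12 were not called. That was 71.4% of the members beside 62.3% of 14007 tested genes, 31.4% higher and 30.9% lower. Few members passed a 2-fold change. Bcl2l15 and Trp53inp1 rose more than 2-fold in each mutant, as did 6.87% of all tested genes in the Hdac1 mutant and 5.45% in the Hdac2 mutant. Eda2r fell more than 2-fold in Hdac1-deficient enteroids, as did 3.71% of tested genes. In either direction, 10.6% and 8.3% of tested genes passed that limit. The median log2 fold change of the members was 0.02 in Hdac1 mutants and 0.16 in Hdac2 mutants, with -0.004 over all tested genes in both. The 4 mutant libraries lay wholly above the 4 controls for 15 members and wholly below for 10 in Hdac1-deficient enteroids, and for 19 and 8 in Hdac2-deficient enteroids. Among all tested genes, 58.5% and 56.1% did not overlap. Both mutants were compared with the same 4 control libraries. Without control replicate 1, 17 members rose and 12 fell in Hdac1-deficient enteroids, and 23 rose and 9 fell in Hdac2-deficient enteroids.

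**Figure D1:**
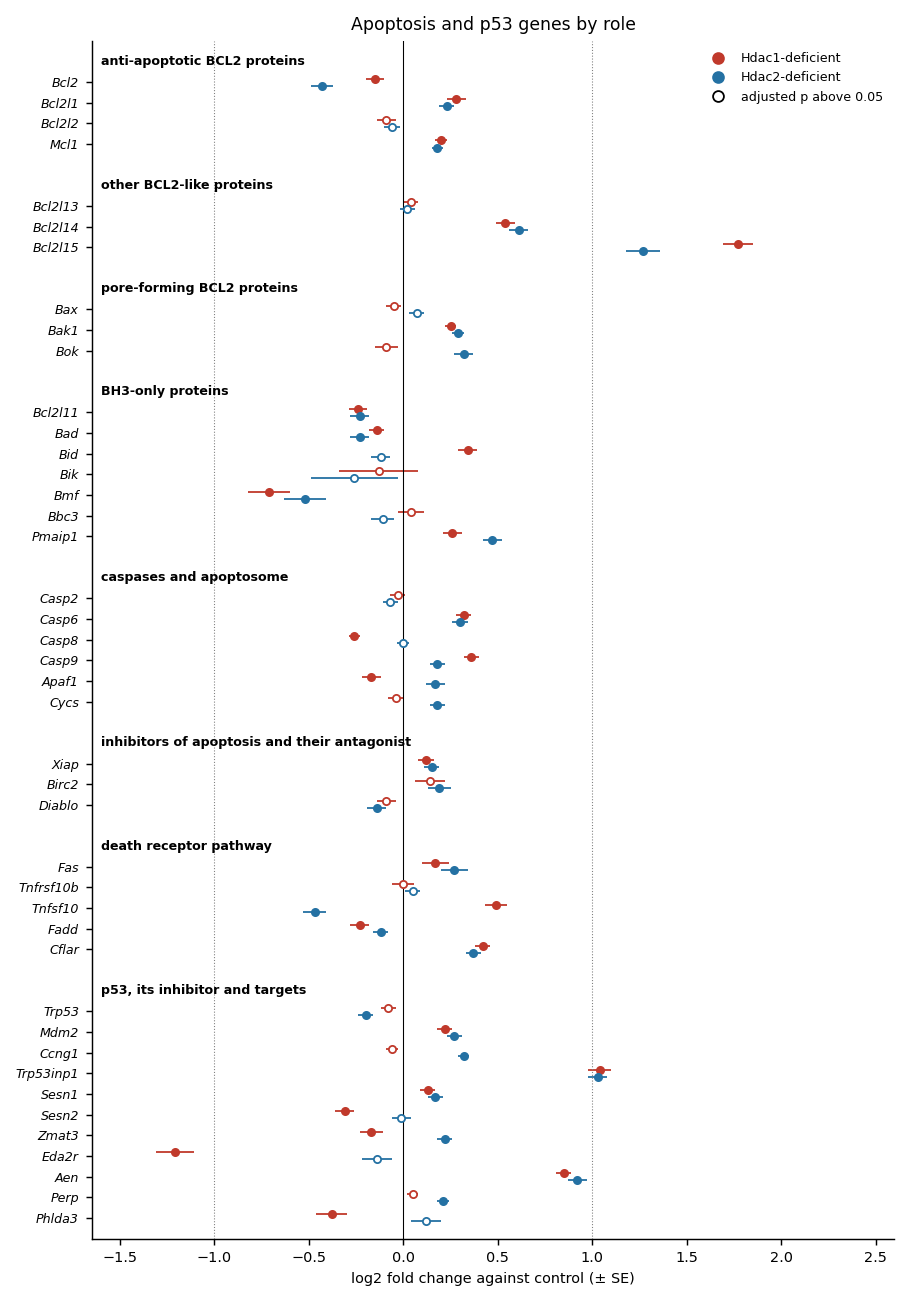
Log2 fold change against control (x axis, mean ± SE) of the 42 listed members, grouped by role, in Hdac1-deficient (red) and Hdac2-deficient (blue) enteroids. Filled points passed an adjusted p of 0.05, and dotted lines mark a 2-fold change. Most points lie within 1 log2 unit of 0. Bcl2l15 and Trp53inp1 stand to the right in both mutants, and Eda2r stands to the left at -1.21 in Hdac1-deficient enteroids.

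In control enteroids the members spanned a wide range of levels per kb of exon, the scale on which genes can be compared. Perp, a membrane protein of desmosomes and a p53 target, had the highest level at 82.9 ± 1.95 CPM per kb (SD, n = 4). Bak1, Ccng1, Mcl1 and Bax followed at 51.5 ± 1.20, 51.1 ± 0.70, 49.7 ± 0.64 and 48.9 ± 1.77 CPM per kb, and neither Bak1 and Ccng1 nor Mcl1 and Bax differed beyond their SDs. Trp53 and Casp8 both lay at 35.5 CPM per kb. The lowest levels were those of Eda2r (2.03 ± 0.21), Bmf (0.988 ± 0.057) and Bik (0.633 ± 0.086 CPM per kb). Bik, a BH3-only gene, had 14 to 35 counts per library and could be measured only coarsely. Levels depended on the length used, and with the longest transcript in place of merged exons Bax lay at 70.1 CPM per kb.

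**Figure D2:**
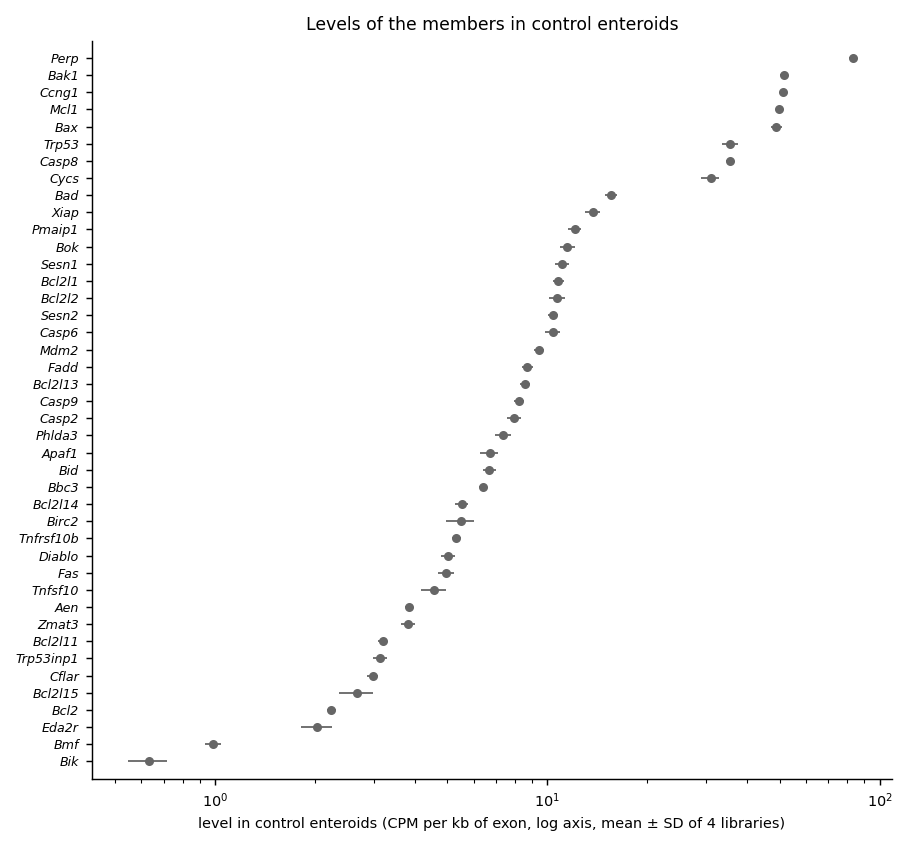
Level of each of the 42 listed members in control enteroids, in CPM per kb of merged exon (x axis, log scale, mean ± SD of 4 libraries). Perp stands highest at 82.9 and Bik lowest at 0.633 CPM per kb, and Bax, Mcl1, Ccng1 and Bak1 lie close together at 48.9 to 51.5 CPM per kb.

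Trp53, which encodes p53 (chromosome 11, 69580359 to 69591873), was abundant in every library. It lay at 154.9, 139.4, 141.9 and 138.9 CPM in control, 136.3, 133.9, 139.7 and 130.4 in Hdac1-deficient and 118.6, 126.8, 128.1 and 122.8 in Hdac2-deficient libraries. All 4 Hdac2-deficient libraries lay below all controls, whereas Hdac1-deficient libraries overlapped them. The log2 fold change was -0.20 ± 0.04 (SE, adjusted p = 5.5e-05, edgeR) in Hdac2-deficient enteroids and -0.08 ± 0.04 (adjusted p = 0.077) in Hdac1-deficient enteroids. The latter passed the threshold in the fit of all 12 libraries (adjusted p = 0.031) and with no filter on low counts (0.046). Between the mutants Trp53 was higher in Hdac1-deficient enteroids by 0.12 ± 0.04 (adjusted p = 0.0075). Mdm2, the p53 inhibitor and target (chromosome 10, 117688875 to 117710758), lay at 49.3, 47.1, 46.3 and 49.3 CPM in control libraries. It lay at 55.0, 53.7, 53.8 and 59.9 CPM in Hdac1-deficient and 55.4, 56.6, 58.5 and 59.6 CPM in Hdac2-deficient libraries, wholly above control in both. Mdm2 rose by 0.22 ± 0.04 (adjusted p = 1.5e-04) and 0.27 ± 0.04 (adjusted p = 4.4e-06) on the log2 scale, and the mutants differed by -0.05, with a 95% interval of -0.13 to 0.04.

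The promoters of the members were searched for the p53 consensus, since p53 binds its targets through paired half-sites of 10 bases. RefSeq promoters (GRCm38.p6, 250 bases before to 50 after each start) were found for 37 of the 43 members. The other 6 had no promoter in the source and were not searched. Of the 11 genes of p53, its inhibitor and targets, 8 had a promoter. Sequence outside these windows was not searched, so a gene without a listed match may still hold a site. A match was a pair of p53 consensus half-sites on either strand, with a spacer of at most 3 bases, intact cores and at most 3 mismatches in all. It was present in 5 of the 37 genes (13.5%), beside 693 of 27025 genes with a promoter (2.56%). At most 2 mismatches were found in 2 members, Bax and Sesn1 (5.41%), beside 0.714% of all genes. Members were chosen in part as known p53 targets, so these shares are no result about the enteroids. The matches are shown because p53 acts on its targets through such sites, with the half-sites in capitals and the strand of the gene. A match is a description of the sequence, not evidence of binding in these enteroids.
Aen, chr7:78895932-78895961, plus strand, in an exon of Aen: aagccGGGCTTGTCCGGGCAAGGAGcttcc
Bax, chr7:45467059-45467119, minus strand, upstream of the gene: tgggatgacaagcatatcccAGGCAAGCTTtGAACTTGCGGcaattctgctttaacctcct
Bbc3, chr7:16309466-16309525, plus strand, in an intron before an inner start: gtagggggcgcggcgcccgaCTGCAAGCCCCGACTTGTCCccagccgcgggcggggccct
Sesn1, chr10:41887233-41887295, plus strand, in an intron before an inner start: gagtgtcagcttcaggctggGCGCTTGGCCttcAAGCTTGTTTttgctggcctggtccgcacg
Trp53, chr11:69580264-69580323, plus strand, upstream of the gene: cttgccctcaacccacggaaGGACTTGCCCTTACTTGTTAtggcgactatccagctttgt
The 5 genes that held a match did not share a direction. Aen and Sesn1 rose in both mutants, Bax and Bbc3 were not called in either, and Trp53 fell in Hdac2-deficient enteroids.

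Among p53, its inhibitor and 9 targets, some genes moved in both mutants and others in one. In Hdac1-deficient enteroids 4 of these 11 genes rose (Mdm2, Trp53inp1, Sesn1 and Aen), 4 fell (Sesn2, Zmat3, Eda2r and Phlda3) and 3 were not called; the median was -0.06 on the log2 scale. In Hdac2-deficient enteroids 7 rose (Mdm2, Ccng1, Trp53inp1, Sesn1, Zmat3, Aen and Perp), Trp53 fell and 3 were not called, with a median of 0.21. In each mutant 72.7% of the group was called, beside 64.6% and 62.3% of all tested genes. Trp53inp1 (chromosome 4, 11156431 to 11174379) encodes a stress-induced nuclear protein that acts in p53 signalling and autophagy. It lay at 18.9, 21.1, 21 and 20.3 CPM in control, 41.0, 38.7, 38.6 and 47.4 in Hdac1-deficient and 40.6, 41.0, 42.2 and 41.0 in Hdac2-deficient libraries. Every mutant library lay above every control. The log2 fold changes were 1.04 ± 0.06 (adjusted p = 4.0e-11) and 1.03 ± 0.05 (adjusted p = 6.6e-14), and the mutants differed by 0.01, with a 95% interval of -0.10 to 0.12. These values sit at the 2-fold limit. In Hdac1-deficient enteroids the value was 1.00 without control replicate 1 and 0.97 without Hdac1-deficient replicate 4, and in Hdac2-deficient enteroids it was 0.99 without control replicate 1 and 1.00 when scaled by library size alone. In each of these 4 cases Trp53inp1 no longer passed the 2-fold limit, which left 1 member, Bcl2l15, that rose beyond it. Eda2r still fell beyond it in Hdac1-deficient enteroids, at -1.25 without control replicate 1 and -1.33 without Hdac1-deficient replicate 4.

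Aen, a nuclease induced by p53 (chromosome 7, 78895854 to 78911209), rose by a like amount; its values were singled out after they were seen. It lay at 21.8, 22.1, 22.1 and 23.2 CPM in control, 39.9, 38.8, 39.7 and 41.0 in Hdac1-deficient and 43.8, 40.7, 40.5 and 42.2 in Hdac2-deficient libraries, with no overlap between control and either mutant. The log2 fold changes were 0.85 ± 0.04 (adjusted p = 1.7e-12) and 0.92 ± 0.05 (adjusted p = 2.2e-13). The mutants differed by -0.07, with a 95% interval of -0.16 to 0.01. Sesn1, a stress-response regulator of mTORC1, rose by 0.13 ± 0.04 and 0.17 ± 0.04 on the log2 scale (adjusted p = 0.012 and 0.0013). The first of these calls was lost without control replicate 4 (adjusted p = 0.062).

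Eda2r, a TNF receptor family member that binds ectodysplasin A2 (chromosome X, 97333840 to 97377216), fell in Hdac1-deficient enteroids. It lay at 11.2, 13.7, 12 and 10.9 CPM in control, 4.99, 4.47, 4.70 and 6.44 in Hdac1-deficient and 10.7, 11.4, 10.7 and 10.5 in Hdac2-deficient libraries. All 4 Hdac1-deficient libraries lay below every library of the other groups, and Hdac2-deficient libraries overlapped control. The log2 fold change was -1.21 ± 0.10 (adjusted p = 5.7e-09) in Hdac1 mutants and -0.14 ± 0.08 (adjusted p = 0.12) in Hdac2 mutants. The difference between the mutants was -1.08 ± 0.10 (adjusted p = 9.3e-10). The median log2 fold change of protein-coding genes of the X chromosome was -0.02 and -0.04 in the 2 mutants. Phlda3, which restrains AKT at the membrane (chromosome 1, 135766119 to 135769136), lay at 10.5, 11.9, 11.6 and 11.8 CPM in control libraries. It lay at 8.29, 8.30, 8.45 and 9.78 CPM in Hdac1-deficient and 12.2, 13.8, 12.8 and 10.5 CPM in Hdac2-deficient libraries. The Hdac1-deficient libraries lay below all others, and the other groups overlapped. Phlda3 fell by 0.38 ± 0.08 on the log2 scale in Hdac1-deficient enteroids (adjusted p = 1.7e-04). In Hdac2-deficient enteroids the value was 0.12 ± 0.08 (adjusted p = 0.19), or 0.18 (adjusted p = 0.045) without Hdac2-deficient replicate 4. The mutants differed by -0.51 ± 0.08 (adjusted p = 1.2e-05).

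**Figure D3:**
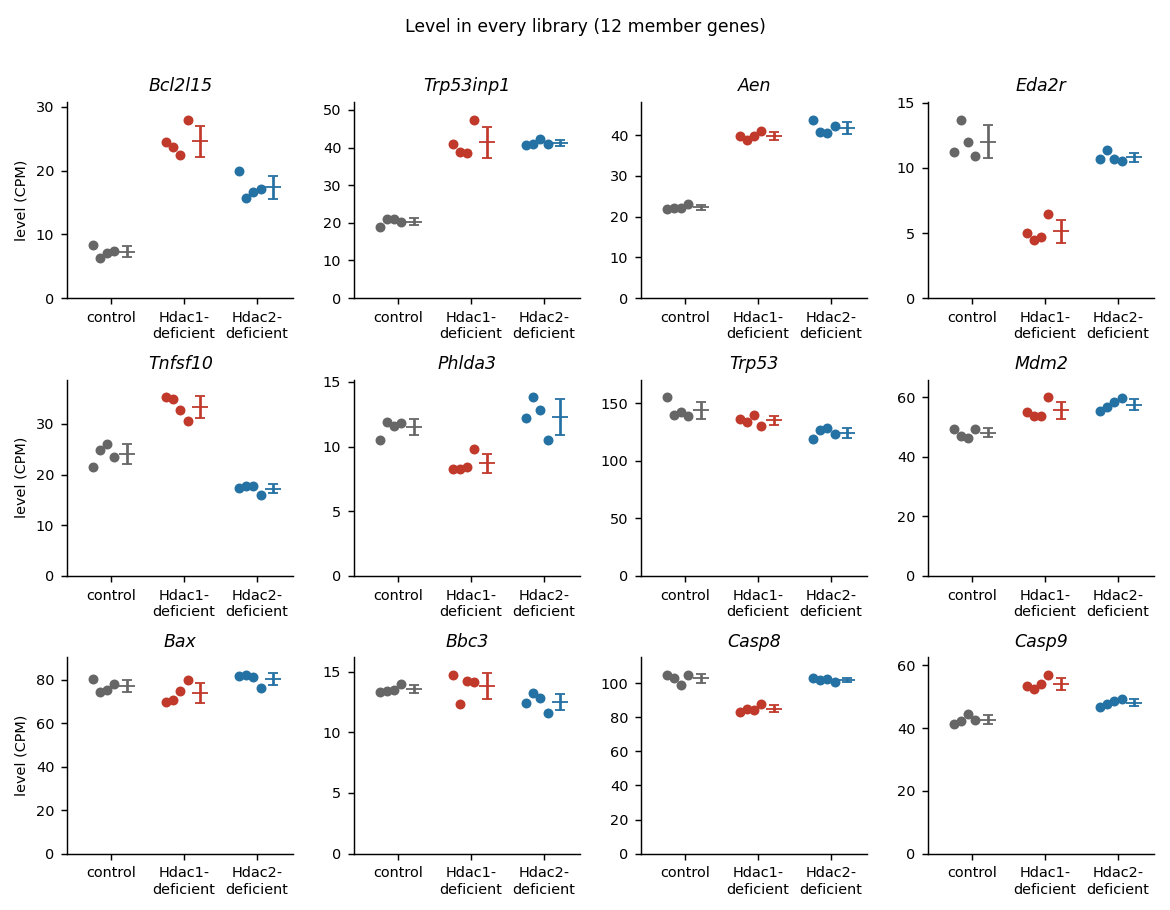
Level in CPM (y axis, from 0) of 12 members in each of the 4 control (grey), 4 Hdac1-deficient (red) and 4 Hdac2-deficient (blue) libraries, with the mean ± SD beside the points. Bcl2l15, Trp53inp1 and Aen are higher in both mutants, Eda2r and Phlda3 are lowest in Hdac1-deficient libraries, Tnfsf10 lies above control in one mutant and below it in the other, and Bax and Bbc3 overlap between control and Hdac1-deficient libraries.

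Ccng1 (cyclin G1) and Perp rose in Hdac2-deficient enteroids by 0.32 ± 0.03 (adjusted p = 4.2e-08) and 0.21 ± 0.03 (adjusted p = 1.3e-06) on the log2 scale. In Hdac1-deficient enteroids their values were -0.06 ± 0.03 (adjusted p = 0.091) and 0.05 ± 0.03 (adjusted p = 0.15). Zmat3, an RNA-binding zinc finger protein, went in opposite directions, with -0.17 ± 0.06 (adjusted p = 0.011) in Hdac1 mutants and 0.22 ± 0.04 (adjusted p = 1.6e-04) in Hdac2 mutants. Sesn2, a relative of Sesn1, fell by 0.31 ± 0.05 in Hdac1-deficient enteroids (adjusted p = 1.9e-05) and was at -0.01 ± 0.05 in Hdac2-deficient enteroids (adjusted p = 0.90).

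The BCL2-like genes held the largest rise of the set. Bcl2l15 (chromosome 3, 103832601 to 103854618) encodes a BCL2-related protein of the gastrointestinal tract with pro-apoptotic activity. It lay at 8.31, 6.27, 7.07 and 7.40 CPM in control, 24.5, 23.7, 22.4 and 28.0 in Hdac1-deficient and 19.9, 15.7, 16.6 and 17.2 in Hdac2-deficient libraries. The 3 groups did not overlap. Bcl2l15 rose 3.41-fold in Hdac1-deficient enteroids (log2 1.77 ± 0.08, adjusted p = 6.8e-13) and 2.41-fold in Hdac2-deficient enteroids (1.27 ± 0.09, adjusted p = 9.1e-11). It was higher in the Hdac1 than in the Hdac2 mutant by 0.50 ± 0.08 on the log2 scale (adjusted p = 2.3e-05). The paper had already picked Bcl2l15 for qPCR from its RNA-Seq and proteomic results, and reported increased expression. GENCODE M21 places a further protein-coding gene, Gm43064, on the same strand over 6048 bases of Bcl2l15, and how shared reads were counted is not given in the sources used here. Bcl2l14, also BCL2-like, lay at 21.9 to 24 CPM in control, 30.3 to 35.1 in Hdac1-deficient and 33.4 to 35.6 in Hdac2-deficient libraries. It rose by 0.54 ± 0.05 (adjusted p = 3.5e-08) and 0.61 ± 0.05 (adjusted p = 3.6e-10). Bcl2l13, a mitochondrial member with a role in mitophagy, was not called in either mutant (0.04 ± 0.04 and 0.02 ± 0.04, adjusted p = 0.39 and 0.69).

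Of the 4 anti-apoptotic BCL2 genes, which encode the proteins that hold BAX and BAK1 in check, 2 rose, 1 fell and 1 was not called in each mutant, where 64.6% and 62.3% of all tested genes were called. Mcl1 rose by 0.20 ± 0.03 (adjusted p = 6.8e-06) and 0.18 ± 0.03 (adjusted p = 1.2e-05). Bcl2l1 (BCL-XL) rose by 0.28 ± 0.05 (adjusted p = 3.0e-05) and 0.23 ± 0.04 (adjusted p = 2.3e-05). Bcl2 itself fell by 0.43 ± 0.06 in Hdac2-deficient enteroids (adjusted p = 9.4e-07) and by 0.15 ± 0.05 in Hdac1-deficient enteroids (adjusted p = 0.022). The latter call was lost by DESeq2 (adjusted p = 0.051) and without control replicate 2, Hdac1-deficient replicate 3 or Hdac1-deficient replicate 4 (adjusted p from just over 0.05 to 0.076). Bcl2 was lower in the Hdac2 than in the Hdac1 mutant (difference 0.29 ± 0.06, adjusted p = 1.6e-04). Bcl2l2 (BCL-W) was at -0.09 ± 0.05 and -0.06 ± 0.04 (adjusted p = 0.09 and 0.22). It passed without control replicate 1, at -0.13 in Hdac1-deficient (adjusted p = 0.0086) and -0.11 in Hdac2-deficient enteroids (adjusted p = 0.02), and in Hdac1-deficient enteroids also in the fit of all 12 libraries (adjusted p = 0.037).

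The pore-forming genes did not move together. Bax (chromosome 7, 45461697 to 45466898) lay at 80.5, 74.5, 75.1 and 78.2 CPM in control, 69.8, 70.6, 74.9 and 79.7 in Hdac1-deficient and 81.8, 82.1, 81.3 and 76.0 in Hdac2-deficient libraries. All 3 groups overlapped. The log2 fold changes were -0.05 ± 0.04 (adjusted p = 0.31) and 0.07 ± 0.04 (adjusted p = 0.11), with 95% intervals of -0.14 to 0.04 and -0.01 to 0.15. The Hdac2-deficient value passed without control replicate 1 (0.09, adjusted p = 0.034). The mutants differed by -0.12 ± 0.04 (adjusted p = 0.017). That call was lost with library size alone (adjusted p = 0.062) and without Hdac1-deficient replicate 1, Hdac1-deficient replicate 2 or Hdac2-deficient replicate 2 (adjusted p 0.056 to 0.087). Bak1, the other main pore former, rose by 0.25 ± 0.03 (adjusted p = 1.5e-06) and 0.29 ± 0.03 (adjusted p = 2.3e-08). Bok, a related protein, rose by 0.32 ± 0.05 in Hdac2-deficient enteroids (adjusted p = 2.8e-05) and was at -0.09 ± 0.06 in Hdac1-deficient enteroids (adjusted p = 0.19), with a difference between the mutants of -0.41 ± 0.06 (adjusted p = 1.2e-06).

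Of the 7 tested BH3-only genes, the stress sensors of the family, 2 rose and 3 fell in Hdac1-deficient enteroids (median -0.13), and 1 rose and 3 fell in Hdac2-deficient enteroids (median -0.23). That was 71.4% and 57.1% of them, beside 64.6% and 62.3% of all tested genes. Bbc3, which encodes the p53-induced PUMA (chromosome 7, 16308393 to 16318205), lay at 13.3, 13.4, 13.5 and 14 CPM in control, 14.7, 12.3, 14.2 and 14.1 in Hdac1-deficient and 12.4, 13.2, 12.8 and 11.6 in Hdac2-deficient libraries. The Hdac2-deficient libraries lay just below control, and the Hdac1-deficient libraries overlapped it. Bbc3 was not called in either mutant (0.04 ± 0.07 and -0.11 ± 0.06, adjusted p = 0.62 and 0.14). The mutants differed by 0.14 ± 0.07 (adjusted p = 0.077), a difference that passed with library size alone (adjusted p = 0.037) and without Hdac1-deficient replicate 2 (0.21, adjusted p = 0.014). Pmaip1, which encodes the other p53-induced BH3-only protein NOXA, rose by 0.26 ± 0.05 (adjusted p = 5.6e-05) and 0.47 ± 0.05 (adjusted p = 1.9e-08). Its rise was larger in Hdac2-deficient enteroids (difference -0.22 ± 0.04, adjusted p = 2.5e-04).

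In both mutants 3 BH3-only genes fell, each of which encodes a protein that binds anti-apoptotic BCL2 members. Bmf, whose protein is tied to the cytoskeleton, lay at 4.89 to 5.55 CPM in control, 2.92 to 3.56 in Hdac1-deficient and 2.95 to 4.10 in Hdac2-deficient libraries. It fell by 0.71 ± 0.11 (adjusted p = 6.4e-06) and 0.52 ± 0.11 (adjusted p = 3.3e-04). Bcl2l11 (BIM) fell by 0.24 ± 0.05 (adjusted p = 3.0e-04) and 0.23 ± 0.05 (adjusted p = 8.9e-04). Bad fell by 0.14 ± 0.04 (adjusted p = 0.0087) and 0.23 ± 0.05 (adjusted p = 8.8e-04). Bad lies on chromosome 19, where the median log2 fold change of protein-coding genes was -0.53 and -0.52 in the 2 mutants. On the other chromosomes, with X, Y and the mitochondrial genome left out, the median was 0.01 and 0.02. The part of the chromosome 19 shift in Bad was not tested. Bid, which links caspase 8 to mitochondria, rose in Hdac1-deficient enteroids by 0.34 ± 0.05 (adjusted p = 5.9e-06) and was at -0.12 ± 0.05 in Hdac2-deficient enteroids (adjusted p = 0.054). The latter passed in the fit of all 12 libraries (adjusted p = 0.034), with library size alone (0.018) and without control replicate 4 (0.018) or Hdac2-deficient replicate 2 (0.05 after rounding). Bik was not called (-0.13 ± 0.21 and -0.26 ± 0.23, adjusted p = 0.60 and 0.33).

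Among caspases and apoptosome components, 2 of 6 rose and 2 fell in Hdac1-deficient enteroids, and 4 rose in Hdac2-deficient enteroids, with medians of -0.04 and 0.17. The 66.7% called in each mutant was close to the 64.6% and 62.3% of all tested genes. Casp8, the initiator caspase of death receptors (chromosome 1, 58795374 to 58847503), lay at 104.7, 103.0, 99.0 and 104.6 CPM in control, 82.9, 84.7, 84.5 and 88.0 in Hdac1-deficient and 103.1, 102.1, 102.2 and 100.5 in Hdac2-deficient libraries. The Hdac1-deficient libraries lay below all others. Casp8 fell by 0.26 ± 0.03 in Hdac1-deficient enteroids (adjusted p = 1.7e-06) and was at -0.002 ± 0.03 in Hdac2-deficient enteroids (adjusted p = 0.96, 95% interval -0.07 to 0.06). The mutants differed by -0.26 ± 0.03 (adjusted p = 1.8e-07).

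Casp9, the initiator caspase of the apoptosome (chromosome 4, 141793612 to 141815976), moved the other way. It lay at 41.3, 42.3, 44.6 and 42.6 CPM in control, 53.4, 52.6, 54.1 and 56.9 in Hdac1-deficient and 46.9, 47.8, 48.6 and 49.3 in Hdac2-deficient libraries. The 3 groups did not overlap. Casp9 rose by 0.36 ± 0.04 (adjusted p = 2.7e-07) and 0.18 ± 0.04 (adjusted p = 4.8e-04), and more in Hdac1-deficient enteroids (difference 0.17 ± 0.04, adjusted p = 7.2e-04). Apaf1, the scaffold that recruits caspase 9, went in opposite directions, at -0.17 ± 0.05 (adjusted p = 0.0036) in Hdac1 mutants and 0.17 ± 0.05 (adjusted p = 0.0039) in Hdac2 mutants. Cycs (cytochrome c) rose by 0.18 ± 0.04 in Hdac2-deficient enteroids (adjusted p = 6.3e-04) and was at -0.04 ± 0.04 in Hdac1-deficient enteroids (adjusted p = 0.38). Casp6, an effector caspase, rose by 0.32 ± 0.04 (adjusted p = 1.1e-06) and 0.30 ± 0.04 (adjusted p = 3.9e-06). Casp2, a caspase activated in DNA damage complexes, was not called (-0.03 ± 0.04 and -0.07 ± 0.04, adjusted p = 0.58 and 0.19), although the Hdac2-deficient value passed without control replicate 1 (-0.10, adjusted p = 0.028).

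The inhibitors of apoptosis in the set and their antagonist moved by small amounts. Of these 3 genes, 1 rose and 2 were not called in Hdac1 mutants, while 2 rose and 1 fell in Hdac2 mutants. That was 33.3% and 100% of them, beside 64.6% and 62.3% of all tested genes. Xiap, which blocks caspases directly, rose by 0.12 ± 0.04 (adjusted p = 0.012) and 0.15 ± 0.04 (adjusted p = 0.0014). The first of these calls was lost without control replicate 4 or Hdac1-deficient replicate 1 (adjusted p = 0.057 each). Birc2 (cIAP1), a ubiquitin ligase of TNF signalling, rose by 0.19 ± 0.06 in Hdac2-deficient enteroids (adjusted p = 0.01). In Hdac1-deficient enteroids it was at 0.14 ± 0.08 (adjusted p = 0.13), or 0.19 without control replicate 2 and 0.18 without Hdac1-deficient replicate 2 (adjusted p = 0.027 and 0.042). Diablo (SMAC), their mitochondrial antagonist, fell by 0.14 ± 0.05 in Hdac2-deficient enteroids (adjusted p = 0.024) and was at -0.09 ± 0.05 in Hdac1-deficient enteroids (adjusted p = 0.15). The Hdac2-deficient call was lost without control replicate 2, Hdac2-deficient replicate 1 or Hdac2-deficient replicate 2 (adjusted p 0.054 to 0.11). Birc3, Birc5 and Birc6 lie outside the set and were added after their values were seen. Against control, Birc3 rose by 0.39 ± 0.05 in Hdac1 mutants and 0.51 ± 0.05 in Hdac2 mutants (adjusted p = 3.1e-07 and 5.1e-09, edgeR). Birc5 fell by 0.14 ± 0.04 and 0.37 ± 0.04 (adjusted p = 0.0045 and 1.5e-08). Birc6 was not called (0.28 ± 0.12 and 0.29 ± 0.13, adjusted p = 0.08 and 0.087).

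In the death receptor pathway 3 of 5 genes rose and 1 fell in Hdac1-deficient enteroids, and 2 rose and 2 fell in Hdac2-deficient enteroids. Over all tested genes 32.7% rose and 31.9% fell in the Hdac1 mutant, and 31.4% and 30.9% in the Hdac2 mutant. Tnfsf10, the ligand TRAIL (chromosome 3, 27317028 to 27342427), went in opposite directions. It lay at 21.4, 24.9, 26.1 and 23.5 CPM in control, 35.2, 34.8, 32.7 and 30.6 in Hdac1-deficient and 17.4, 17.7, 17.7 and 15.9 in Hdac2-deficient libraries. The 3 groups did not overlap, with Hdac1-deficient libraries highest and Hdac2-deficient libraries lowest. The log2 fold changes were 0.49 ± 0.06 (adjusted p = 9.9e-07) and -0.47 ± 0.06 (adjusted p = 1.4e-06), and the mutants differed by 0.96 ± 0.06 (adjusted p = 9.1e-13). Its receptor gene Tnfrsf10b was not called in either mutant (-0.001 ± 0.06 and 0.05 ± 0.04, adjusted p = 0.98 and 0.31).

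Cflar, which encodes the caspase 8 inhibitor c-FLIP, lay at 35.9 to 39.4 CPM in control, 48.2 to 52.6 in Hdac1-deficient and 45.8 to 50.4 in Hdac2-deficient libraries. It rose by 0.42 ± 0.04 (adjusted p = 7.3e-08) and 0.37 ± 0.04 (adjusted p = 3.2e-07). Fadd, the adaptor between receptor and caspase 8, fell by 0.23 ± 0.05 (adjusted p = 2.5e-04) and 0.12 ± 0.04 (adjusted p = 0.026). The latter call was lost by DESeq2 (adjusted p = 0.065) and without control replicate 1, control replicate 2 or Hdac2-deficient replicate 2, 3 or 4 (adjusted p 0.051 to 0.069). Fas, the receptor of FAS ligand and a p53 target, rose by 0.17 ± 0.07 (adjusted p = 0.039) and 0.27 ± 0.07 (adjusted p = 0.0017). The first call was lost by DESeq2 (adjusted p = 0.095), with no filter (0.063), with the replicate number as a block (0.054) and without control replicate 2 or 4 or Hdac1-deficient replicate 2 or 3 (0.077 to 0.14). Fas, like Bad, lies on chromosome 19, and unlike the median gene of that chromosome it was higher in the mutants.

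Tested directly against each other, the mutants differed in 19 of the 42 members, or 45.2%, beside 45.9% of 14510 tested genes. Of these, 6 were higher and 13 lower in the Hdac1 than in the Hdac2 mutant, where 22.3% and 23.7% of all genes were. The median difference was -0.04 over the members and 0.01 over all tested genes. Differences above 0.5 on the log2 scale were found for Tnfsf10, Eda2r and Phlda3, in a comparison where 14.4% of all genes passed that limit. Phlda3 and Bcl2l15 sit at that limit. With all libraries kept, Phlda3 ranged from -0.51 to -0.48 over the alternatives and Bcl2l15 from 0.50 to 0.53, so which of them passed depended on the setting. Within p53, its inhibitor and targets, 63.6% of the 11 genes were called, beside the 45.9% of all tested genes. In that group Trp53 was higher in Hdac1-deficient enteroids. Ccng1, Sesn2, Zmat3, Eda2r, Perp and Phlda3 were lower, with differences of -0.38 ± 0.03, -0.31 ± 0.05, -0.39 ± 0.05, -1.08 ± 0.10, -0.16 ± 0.03 and -0.51 ± 0.08 (adjusted p between 3.5e-10 and 3.9e-05). The remaining 4 genes of that group, Mdm2, Trp53inp1, Sesn1 and Aen, were not called. Outside it, Bcl2l15, Bid, Bcl2 and Casp9 were higher in Hdac1-deficient enteroids, as was Tnfsf10. Bid differed by 0.45 ± 0.05 (adjusted p = 1.9e-08). Bok, Apaf1, Casp8, Cycs, Pmaip1, Bax and Fadd were lower. Apaf1 differed by -0.35 ± 0.05 (adjusted p = 6.8e-07) and Cycs by -0.22 ± 0.04 (adjusted p = 4.2e-05). Fadd differed by -0.12 ± 0.05 (adjusted p = 0.039), a call lost by DESeq2 (0.071), with library size alone (0.12), with a mean of at least 10 counts (0.052) and without Hdac1-deficient replicate 1 or 4 or Hdac2-deficient replicate 1, 2 or 3 (0.053 to 0.11). Bad and Tnfrsf10b, not called, passed without Hdac2-deficient replicate 1 (0.14, adjusted p = 0.028) and without Hdac1-deficient replicate 4 (-0.12, adjusted p = 0.048), respectively.

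**Figure D4:**
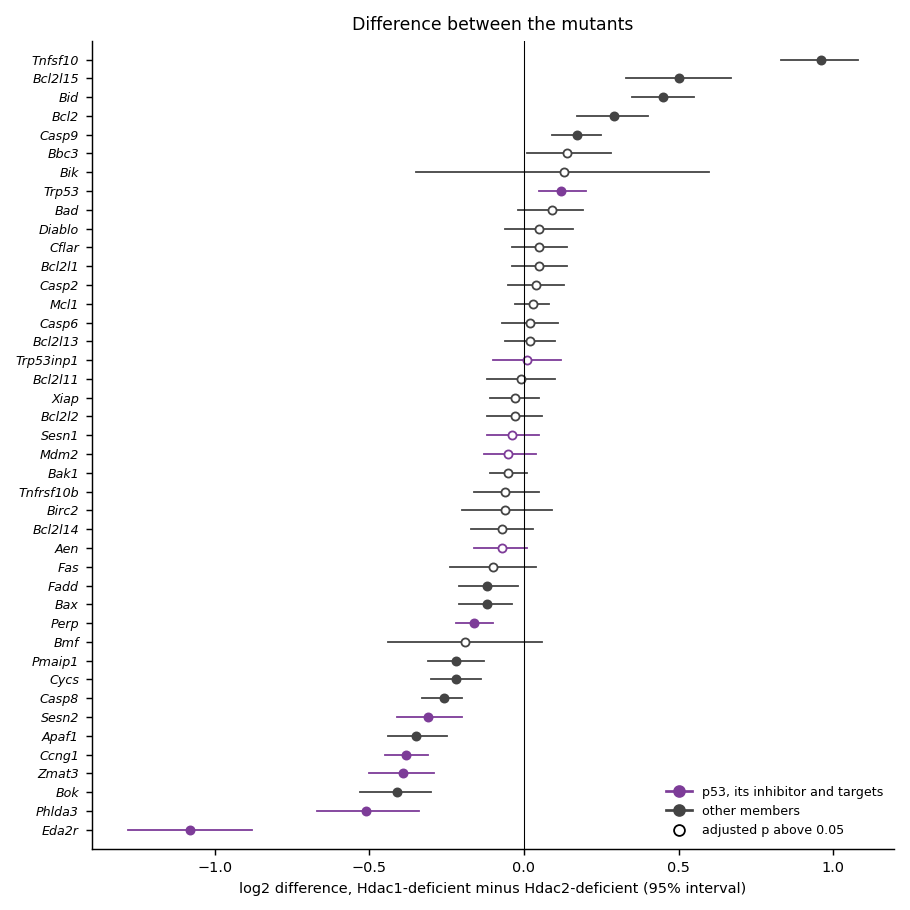
Log2 difference between Hdac1-deficient and Hdac2-deficient enteroids (x axis, with its 95% interval) for the 42 listed members, in order of size. Filled points passed an adjusted p of 0.05, and purple marks p53, its inhibitor and targets. Tnfsf10 is the highest at 0.96 and Eda2r the lowest at -1.08. Of the 11 purple points, 6 are filled to the left of 0 and 1 to the right. Over all tested genes 23.7% were lower and 22.3% higher.

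A further list of p53 targets, 24 of 25 of which were tested, was read for comparison. In Hdac1-deficient enteroids 4 rose, 8 fell and 12 were not called, and in Hdac2-deficient enteroids 9 rose, 4 fell and 11 were not called. That was 50% and 54.2% of the list, below the 64.6% and 62.3% of all tested genes. The medians were -0.04 and -0.05. Between the mutants 4 were higher and 12 lower in Hdac1-deficient enteroids, with a median difference of -0.14. These were 66.7% of the list, where 45.9% of all tested genes were called, 22.3% higher and 23.7% lower. Gdf15, a stress-induced secreted factor, lay at 26.8 to 31.2 CPM in control, 9.94 to 11.8 in Hdac1-deficient and 11.7 to 14.7 in Hdac2-deficient libraries. It fell in both mutants, by 1.38 ± 0.06 (adjusted p = 2.3e-13) and 1.11 ± 0.07 (adjusted p = 4.4e-12). Cdkn1a, the cell cycle inhibitor p21 and a classical p53 target, was added after its values were seen. It lay at 233.7 to 252.4 CPM in control, 243.0 to 259.4 in Hdac1-deficient and 358.3 to 373.0 in Hdac2-deficient libraries. Its log2 fold change was 0.05 ± 0.03 (adjusted p = 0.18) in Hdac1 mutants and 0.61 ± 0.03 (adjusted p = 1.8e-13) in Hdac2 mutants, with a difference of -0.56 ± 0.03 (adjusted p = 5.1e-14).

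**Figure D5:**
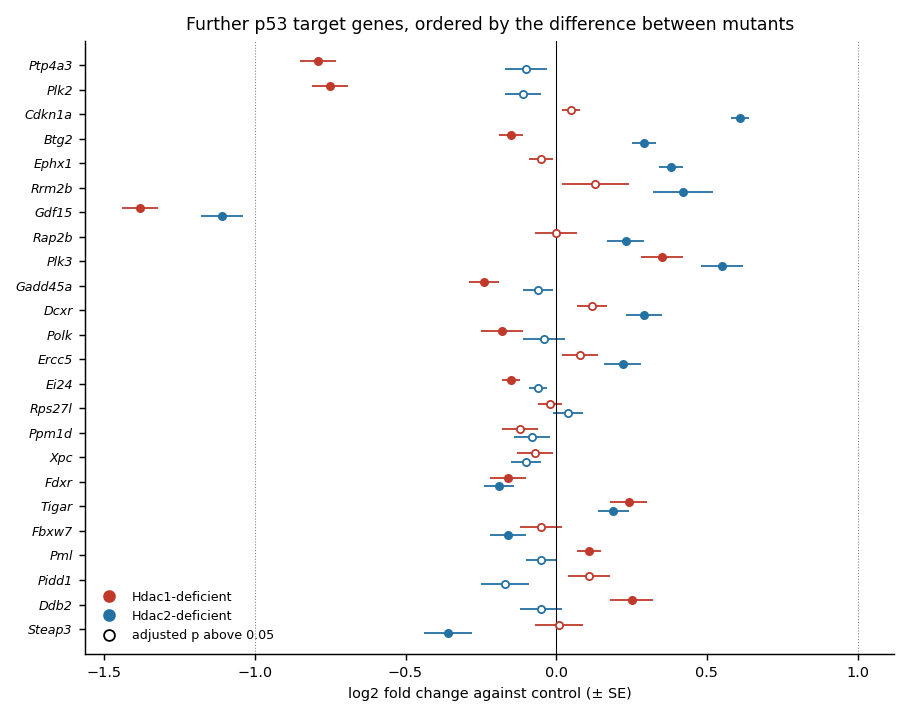
Log2 fold change against control (x axis, mean ± SE) of 24 further p53 target genes in Hdac1-deficient (red) and Hdac2-deficient (blue) enteroids, ordered by the difference between the mutants. Filled points passed an adjusted p of 0.05. Cdkn1a is higher in Hdac2-deficient enteroids, and Gdf15 lies below -1 in both.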

How the data were processed

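RNA-Seq was made from poly(A) RNA of enteroids with a directional kit and paired reads of 100 bases. The authors aligned reads to GRCm38 with STAR (2.4.0f1 in the submitters' processing notes). The counting program, its annotation and its strand setting are not given in the sources used here, so reads of overlapping genes are uncertain: Bid with Bcl2l13, Bak1 with Ggnbp1, Bad with Gpr137 and Fadd with Faddos on opposite strands, and Bcl2l2 with Gm20521, Casp8 with Gm37760, Diablo with Gm49027 and Bax with Gm45808 on the same strand. The authors deposited whole-number counts per gene, 1 table per mutant with the same control libraries, in which the smallest sum over libraries was 10 counts. Their fold changes, p-values and normalised values were not used.

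Counts were tested with edgeR 4.0.16 (R 4.3.3; quasi-likelihood F test, robust, TMM, filterByExpr, Benjamini-Hochberg over all tested genes). Each mutant was fitted with control (8 libraries), and the mutants were compared in a fit of all 12 libraries. SE is the log2 fold change divided by the square root of F. Calls required an adjusted p no higher than 0.05, either with any fold or with a fold above 2. Full values are given for members over 2-fold, those differing between mutants by over 0.5 on the log2 scale, and Trp53, Mdm2, Bax, Bbc3, Casp8 and Casp9; at most 3 genes over 2-fold come from each further list. Of the further lists, 1 gene of the p53 targets and 1 of the other cell death genes are not reported here and were left out of the counts. Members and lists were chosen with earlier results of these data known. Alternatives were DESeq2 1.42.0, RLE size factors, library size alone, no filter, a mean of at least 10 counts, a replicate block, all 12 libraries in 1 fit, and each library left out. The scripts were run on simulated counts in which far fewer genes changed than were called here. Those runs therefore do not show the error rate for these data. Lengths and positions come from GENCODE M21, promoters from RefSeq (GRCm38.p6).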

Additional observations from a re-analysis of the deposited data

Results flagged for a closer look

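In 4 of 126 member groups of 4 libraries, 1 library stood apart from the other 3 by Dixon's test at the 95% level, where chance gives about 5%. Bax lay at 76.0 CPM in Hdac2-deficient replicate 4, with the others at 81.3 to 82.1. Bak1 lay at 153.7 CPM in Hdac2-deficient replicate 1, with the others at 149.5 to 150.2. Tnfrsf10b lay at 32.5 CPM in Hdac1-deficient replicate 4, with the others at 27.1 to 28.0. Phlda3 lay at 9.78 CPM in the same library, with the others at 8.29 to 8.45.

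The response differed between the mutants by more than 0.5 on the log2 scale for 3 members, a limit that 14.4% of all tested genes passed. Phlda3 sits at that limit, with -0.51 to -0.48 over the alternatives that kept all libraries. The difference, Hdac1-deficient minus Hdac2-deficient, was 0.96 for Tnfsf10 (adjusted p = 9.1e-13, edgeR), -1.08 for Eda2r (adjusted p = 9.3e-10) and -0.51 for Phlda3 (adjusted p = 1.2e-05).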

How the results depend on the processing

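With all libraries kept, 7 alternatives per mutant and 6 for the mutants against each other left 286 of 294, 290 of 294 and 246 of 252 member values with their sign and call (Hdac1-deficient, Hdac2-deficient and the difference). The changed calls stand beside the genes above. Signs turned only for members that were not called, and the cause was not tested. They were Tnfrsf10b in Hdac1-deficient enteroids (0.002 with RLE size factors), Bcl2l13 in Hdac2-deficient enteroids (-0.01 with library size alone) and Bcl2l11 between the mutants (0.01 with library size alone). With 1 library left out, values crossed 0 for Tnfrsf10b in Hdac1 mutants (-0.06 to 0.03), Bcl2l13 (-0.01 to 0.03), Casp8 (-0.02 to 0.004) and Sesn2 (-0.03 to 0.02) in Hdac2 mutants, and Bcl2l2 (-0.05 to 7e-05), Bcl2l11 (-0.04 to 0.03), Casp6 (-0.01 to 0.05) and Trp53inp1 (-0.06 to 0.05) between the mutants.

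With no filter on low counts, more genes were tested (18676 and 18225), and 1581 rose over 2-fold in Hdac1-deficient enteroids (979 with the filter). In Hdac2-deficient enteroids 1170 rose (764 with it) and 622 fell (398 with it). Members that rose over 2-fold numbered 1 in Hdac2-deficient enteroids with library size alone, since Trp53inp1 sits at the limit. With 1 library left out they numbered 1 to 2 in each mutant, and members called with any fold numbered 14 to 17 higher and 10 to 12 lower in Hdac1-deficient enteroids, 22 to 23 and 6 to 9 in Hdac2-deficient enteroids, and 6 to 7 and 11 to 13 between the mutants.

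Replicate numbers were shared between groups in the labels, but deviations of same-numbered libraries were at most weakly correlated (-0.0455 to 0.0913). The same number was still the best match for replicate 3 in every pair of groups (0.0341 to 0.0478), and for replicate 1 in none. With the replicate number as a block, Fas in Hdac1-deficient enteroids lost its call (0.17, adjusted p = 0.054), and no other member call changed. With the longest transcript in place of merged exons, 34 of 42 control levels per kb moved by more than their SD. Depth limited Bik, at 14 to 35 counts per library.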

Other observations

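Other regulators of p53 and other cell death genes outside the set were read from 2 further lists. Of 14 tested p53 regulators and DNA damage kinases, 2 rose, 6 fell and 6 were not called in Hdac1-deficient enteroids, and 3 rose, 5 fell and 6 were not called in Hdac2-deficient enteroids. In each mutant 57.1% were called, beside 64.6% and 62.3% of all tested genes. Cdkn2a, the locus of p16 and of the MDM2 inhibitor p19ARF, lay at 0.826 to 1.22 CPM in control, 2.4 to 3.09 in Hdac1-deficient and 3.60 to 4.24 in Hdac2-deficient libraries, and rose by 1.53 ± 0.17 (adjusted p = 1.1e-07, edgeR) and 2.06 ± 0.15 (adjusted p = 2.0e-10) on the log2 scale. The mutants differed by -0.53 ± 0.12 (adjusted p = 9.6e-04). The p53 relatives Trp63 and Trp73 were too low to be tested.

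Of 26 tested other cell death genes, 13 rose and 7 fell in Hdac1-deficient enteroids and 14 rose and 7 fell in Hdac2-deficient enteroids, with medians of 0.10 and 0.20. That was 76.9% and 80.8% of them, beside 64.6% and 62.3% of all tested genes. Mlkl, the executioner of necroptosis, lay at 2.1 to 2.35 CPM in control, 3.15 to 3.63 in Hdac1-deficient and 9.59 to 12.5 in Hdac2-deficient libraries. It rose by 0.67 ± 0.12 (adjusted p = 5.8e-05) and 2.30 ± 0.10 (adjusted p = 6.2e-14), and was lower in the Hdac1 than in the Hdac2 mutant by a log2 difference of -1.64 ± 0.09 (adjusted p = 1.1e-13). The pyroptosis pore gene Gsdmd, chosen after its values were seen, rose by 0.45 ± 0.05 and 0.88 ± 0.03 (adjusted p = 9.0e-08 and 5.9e-16).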
